A study of Mus musculus with 9 samples.

Results

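Dendritic cells (DCs) of leukemic mouse spleen were sorted into a pair of populations and compared: CD11c+MHCII lo cells, named T-DCs, and mature conventional DCs with high surface MHCII, named T-mDCs. The comparison used 6 of the 9 sequenced samples, 3 of T-DCs and 3 of T-mDCs. The other 3 samples, mature DCs of normal spleen (N-mDCs), entered the fit only to share the estimate of the spread between samples. Leukemia was a T-cell acute lymphoblastic leukemia (T-ALL) driven by an activated intracellular Notch1 carried by a retrovirus with GFP, first raised in irradiated recipients of c-kit+ marrow cells. GFP+ leukemia cells were then passed into C57BL/6J or C57B6.SJL female mice of 6 to 8 weeks without irradiation, and DCs were enriched with CD11c beads and sorted from spleen on day 15. Red cells were lysed with ammonium chloride before the sort. No source used here says whether the 3 samples of a group were separate animals, pools or aliquots, so the adjusted p-values measure the spread between these samples, which may be technical.

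DCs take up antigen, cut it into peptides and show these on MHC molecules to T cells. On maturation they raise surface MHC class II and costimulatory molecules, switch on the chemokine receptor Ccr7 and travel to the T-cell zones of spleen and lymph node. Conventional DCs are divided into cDC1, which cross-present antigen to CD8 T cells, and cDC2, which mainly address CD4 T cells. Because T-DCs were gated on low MHCII protein, a lower level of MHCII transcripts is close to the definition of the group, whereas the other genes were not part of the gate.

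Levels are FPKM, that is, fragments scaled to gene length and to library size. Differences are T-DC minus T-mDC on log2(FPKM + 1), with the standard error (SE) of the fit, and a gene was called higher or lower when limma's adjusted p was under 0.05. In total 11959 of 54532 genes had an FPKM of at least 1 in 3 or more of the 6 samples and were tested, of which 10311 were protein coding. Reads recovered from the FPKM steps summed to between 15360815 and 18440913 per library over genes.

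The 6 libraries did not form a tight pair of groups. T-mDC 2 and T-mDC 3 correlated at Pearson's r = 0.992 over log2 values, and T-mDC 1 correlated with them at 0.922 and 0.920. T-DC 2 and T-DC 3 correlated at 0.961, whereas T-DC 1 correlated with them at 0.830 and 0.796 and with T-mDC 1 at 0.914. For genes with 20 to 200 reads, the chi-square per gene between T-mDC 2 and T-mDC 3 was 1.96, where counting noise alone gives 1. It was between 10.6 and 33.1 for the other pairs within the T-DC and T-mDC groups. Because T-mDC 2 and 3 were this close, calls are also given from a fit in which their mean stood for 1 sample. Hemoglobin took 3.82% and 3.005% of the reads of T-DC 2 and 3 but 0.0422% of those of T-DC 1 and at most 0.0140% of those of the T-mDC samples.

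Of the 11959 genes, 715 were higher in T-DCs (5.98%) and 1088 were lower (9.10%). With T-mDC 2 and 3 averaged, 108 of the higher genes (0.903%) and 487 of the lower genes (4.07%) kept their call. Without T-DC 1 the counts were 2274 higher (19.0%) and 2087 lower (17.5%). All 1088 lower genes and 707 of the 715 higher genes had no overlap between the 3 T-DC and the 3 T-mDC samples, in a table where 18.0% and 17.2% of all tested genes were separated in those directions. The median difference was -1.47 over the lower genes and 1.42 over the higher ones. When the values were rescaled to TPM, so that every library had the same sum, 369 genes were higher and 1260 lower, which moved the share of lower calls from 60.3% to 77.3% and the median of all genes from 0.07 to -0.23.

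The genes that separated the groups most widely in the downward direction included several of the program that DCs switch on when they mature and migrate. They were picked for the gap between the groups, so their lack of overlap follows from the choice. Fscn1 (chromosome 5, 142960343 to 142973185, mm10), which encodes the actin-bundling protein fascin of DC dendrites, was at 4.39, 3.98 and 1.25 FPKM in T-DC 1, 2 and 3 and at 333, 373 and 392 FPKM in T-mDC 1, 2 and 3. T-DCs were far below T-mDCs in every sample, and the difference was -6.54 (SE 0.52, adjusted p = 0.000874, and 0.00975 with T-mDC 2 and 3 averaged). Ccr7 (chromosome 11, 99144196 to 99155077), the receptor that leads mature DCs to T-cell zones, was at 9.54, 24.6 and 1.60 FPKM in the T-DC samples and at 539, 899 and 923 FPKM in the T-mDC samples. T-DC 3 was lowest, and the difference was -6.43 (SE 0.76, adjusted p = 0.00177, averaged 0.0125). Ccl5 (chromosome 11, 83525778 to 83530518), a chemokine that attracts T cells, was at 5.76, 15.996 and 4.87 FPKM against 391, 629 and 571 FPKM. Its difference was -5.89 (SE 0.45, adjusted p = 0.000874, averaged 0.00975).

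**Figure D1:**
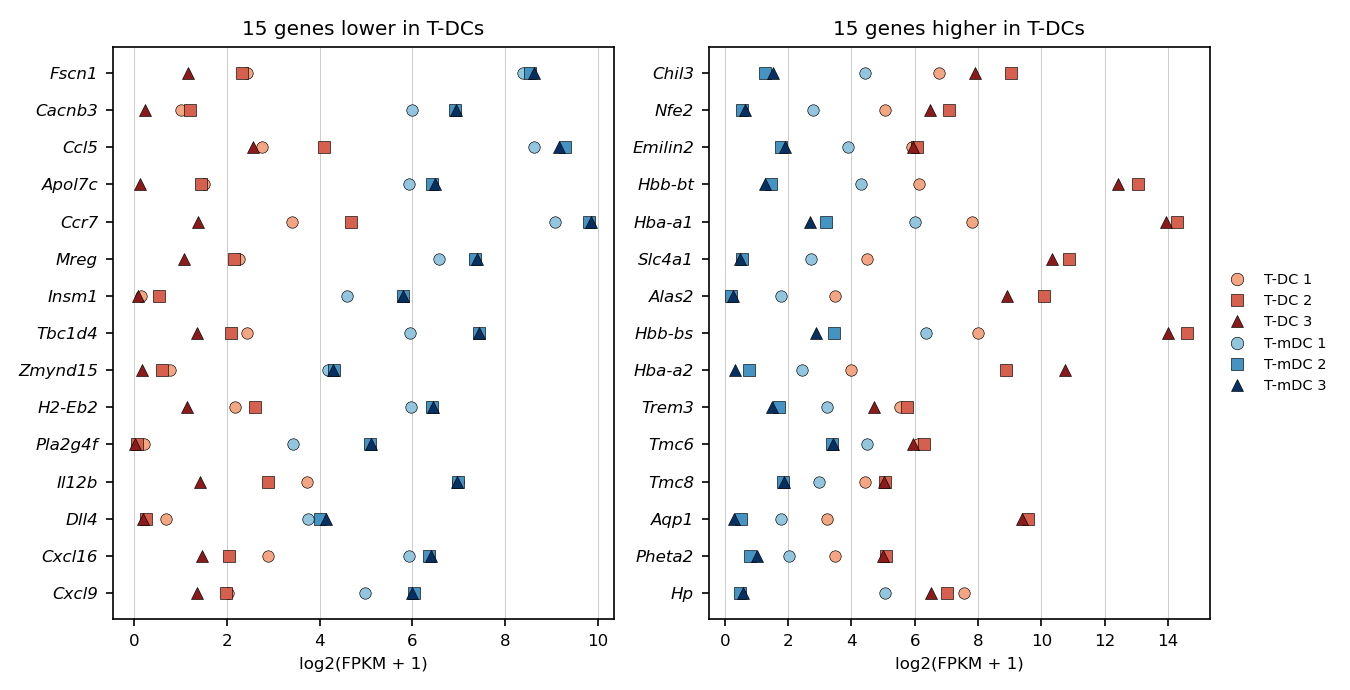
Levels, as log2(FPKM + 1) on the horizontal axis, of the 15 genes with the widest gap downward (left panel) and the 15 with the widest gap upward (right panel), 1 point per T-DC or T-mDC library. The genes were picked for this gap, so their lack of overlap follows from the choice. For the red cell genes of the right panel T-DC 1 lies nearer to T-mDC 1 than to T-DC 2 and 3.

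Cacnb3, which encodes a beta subunit of voltage-gated calcium channels, was at 1.00, 1.32 and 0.181 FPKM in T-DCs and at 62.5, 119 and 121 FPKM in T-mDCs. Mreg, which encodes melanoregulin, a protein of organelle transport, was at 3.81, 3.45 and 1.10 FPKM against 94.5, 162 and 168 FPKM. Apol7c, of the apolipoprotein L family, was at 1.84, 1.72 and 0.0959 FPKM against 59.4, 84.8 and 88.6 FPKM. The differences were -5.79 (SE 0.48, adjusted p = 0.000916) for Cacnb3, -5.28 (SE 0.48, adjusted p = 0.00103) for Mreg and -5.25 (SE 0.51, adjusted p = 0.00131) for Apol7c. Insm1, a zinc-finger transcription factor best known from neuroendocrine cells, was at 0.108, 0.458 and 0.0637 FPKM in T-DCs and at 23.0, 54.5 and 54.9 FPKM in T-mDCs. T-mDC 1 held less Insm1 than the other 2 T-mDC samples, but all 3 were far above the T-DC samples, and the difference was -5.13 (SE 0.49, adjusted p = 0.00126, averaged 0.0106). Tbc1d4, a regulator of Rab GTPases, was lower by the same order, with 4.43, 3.27 and 1.55 FPKM against 60.4, 171 and 173 FPKM and a difference of -4.98 (SE 0.45, adjusted p = 0.00103). The remaining genes among the 15 with the widest gap were H2-Eb2, Il12b, Dll4, Cxcl16, Cxcl9, Zmynd15 and Pla2g4f, with differences between -4.44 and -3.58. Adjusted p over all 15 ranged from 0.000874 to 0.00408, and from 0.00975 to 0.0226 with T-mDC 2 and 3 averaged, and each of the 15 kept its call in all 20 refits. Cxcl16 and Zmynd15 share 552 bases on opposite strands, and Dll4 shares 411 bases with an antisense transcript. Whether the counting used strand is not given in the sources used here, so reads of such partners cannot be told apart.

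Of 25 tested genes of the mature migratory DC list, 23 were lower in T-DCs and none was higher, and 21 of the 23 kept the call with T-mDC 2 and 3 averaged. The median difference of the list was -3.17, against 0.07 over all tested genes. Marcksl1, an actin and membrane regulator, was at 19.4, 29.1 and 20.1 FPKM against 216, 257 and 256 FPKM, with a difference of -3.37. The 2 members that did not pass were Samsn1, a signalling adaptor, at -0.63 (adjusted p = 0.189), and Net1, at -0.22 (adjusted p = 0.698). In bulk samples, fewer cells that carry this program and less of its RNA in each cell cannot be told apart.

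**Figure D2:**
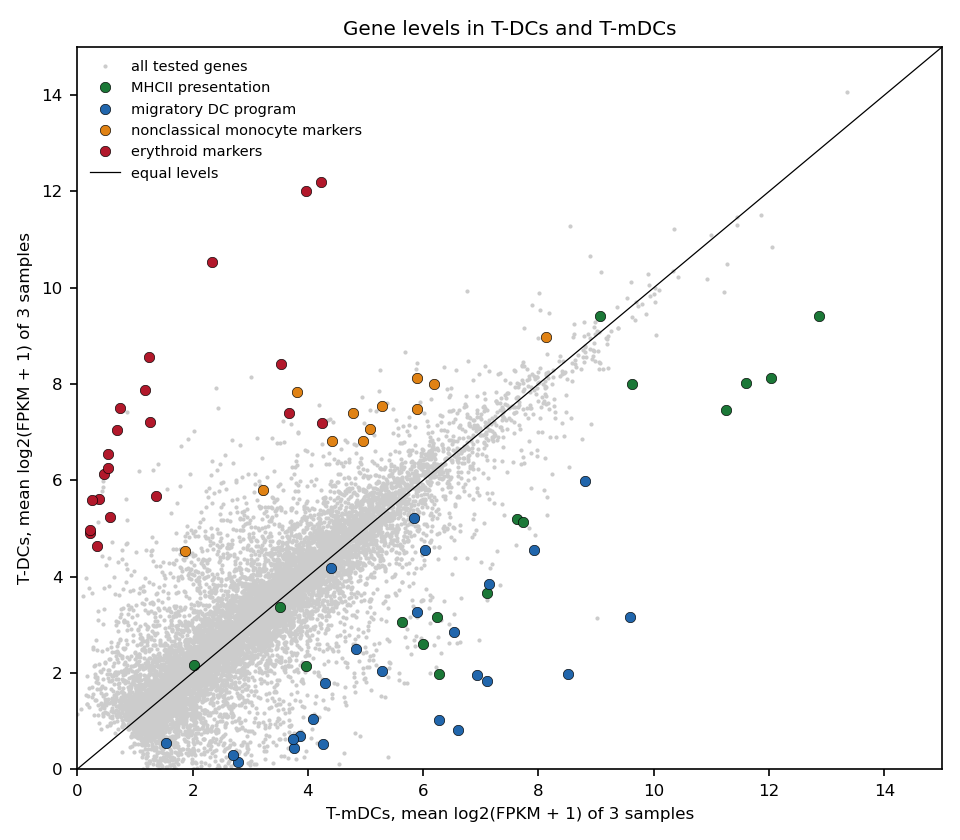
Each point is 1 of the 11959 tested genes, with the mean log2(FPKM + 1) of the 3 T-mDC samples on the horizontal axis and of the 3 T-DC samples on the vertical axis, and the line marks equal levels. Migratory and most MHCII presentation genes lie under the line (medians of the difference -3.17 and -2.84), and nonclassical monocyte and erythroid genes lie above it (2.24 and 5.66).

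MHC class II transcripts were lower in T-DCs for 13 of the 16 tested genes of the pathway, among them the transactivator, the invariant chain and the peptide-binding chains. Ciita, the master transactivator of the pathway, was at 8.01, 5.95 and 2.48 FPKM in T-DCs and at 42.4, 75.8 and 76.7 FPKM in T-mDCs. The groups did not overlap and the difference was -3.40 (SE 0.39, adjusted p = 0.00175). H2-Eb1 (chromosome 17, 34305877 to 34316199), the beta chain of I-E, was at 576, 295 and 124 FPKM against 3208, 4757 and 4792 FPKM. T-DC 1 was the highest T-DC sample and T-mDC 1 the lowest T-mDC sample, and the difference was -3.92 (SE 0.49, adjusted p = 0.00229, averaged 0.0153). H2-Aa, the alpha chain of I-A, was at 356, 185 and 81.0 FPKM against 1869, 2815 and 2750 FPKM, a difference of -3.79, and H2-Ab1, its beta chain, differed by -3.58. Cd74, the invariant chain that escorts class II to endosomes, was at 1143, 837 and 326 FPKM against 6167, 8216 and 8328 FPKM, a difference of -3.46. T-DCs therefore still held these class II transcripts, at no less than 81.0 FPKM, while lying well below T-mDCs.

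The accessory chains moved the same way. H2-DMa and H2-DMb1, which load peptide onto class II, differed by -2.44 and -2.60, and H2-Oa and H2-Ob, which restrain that loading, differed by -3.08 and -2.58. H2-DMb2 was at 14.2, 18.0 and 5.93 FPKM in T-DCs and at 99.1, 159 and 163 FPKM in T-mDCs, a difference of -3.45, and its reads may be shared with those of its near-identical neighbour H2-DMb1. H2-Eb2 (chromosome 17, 34325665 to 34340229), a second E beta gene, was at 3.49, 5.08 and 1.19 FPKM against 61.4, 84.5 and 85.5 FPKM, with the widest class II difference at -4.30 (SE 0.50, adjusted p = 0.00177, averaged 0.0125). No gene of the list was higher, 11 of the 13 lower genes kept the call with T-mDC 2 and 3 averaged, and the median difference was -2.84. The 2 calls that ended were those of Ifi30, the lysosomal thiol reductase, and Rfx5, a subunit of the promoter-binding RFX complex. Ifi30 was at 428, 229 and 166 FPKM against 734, 819 and 813 FPKM (difference -1.63, adjusted p = 0.0149, averaged 0.0689), and its adjusted p was 0.0583 without T-DC 2, 0.0693 without T-mDC 2 and 0.0683 without T-mDC 3. Rfx5 differed by -1.82 (adjusted p = 0.0178, averaged 0.0806), with 0.0626 without T-DC 2, 0.0577 without T-DC 3, 0.0810 without T-mDC 2 and 0.0804 without T-mDC 3. Not every gene of the pathway was lower: Ctss, the protease that trims the invariant chain, was at 1212, 653 and 404 FPKM against 638, 498 and 491 FPKM, with overlapping groups and a difference of 0.35 (adjusted p = 0.547). Rfxap (-0.16) and Rfxank (0.13), the other RFX subunits, did not pass either.

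Class II promoters are known for a compact block of elements bound by RFX, CREB and NF-Y, and the CCAAT element bound by NF-Y can be read directly as GATTGG on 1 strand. Promoters of 6 class II genes that were lower in T-DCs are shown because they share this element within the window, each as 150 bases before the RefSeq start (GRCm38.p6), read along the gene, with GATTGG or its reverse complement in capitals. They lie at chr17:34305717-34305866 (+) for H2-Eb1, chr17:34287824-34287973 (-) for H2-Aa, chr17:34325525-34325674 (+) for H2-Eb2, chr17:34153041-34153190 (+) for H2-DMb1, chr17:34092229-34092378 (+) for H2-Oa and chr17:34238755-34238904 (+) for H2-Ob.
H2-Eb1: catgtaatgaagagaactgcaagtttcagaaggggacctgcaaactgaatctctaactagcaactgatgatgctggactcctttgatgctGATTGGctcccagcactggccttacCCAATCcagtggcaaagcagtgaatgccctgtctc
H2-Aa: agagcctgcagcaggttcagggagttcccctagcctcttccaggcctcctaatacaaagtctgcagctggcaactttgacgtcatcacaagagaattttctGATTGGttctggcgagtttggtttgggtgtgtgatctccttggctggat
H2-Eb2: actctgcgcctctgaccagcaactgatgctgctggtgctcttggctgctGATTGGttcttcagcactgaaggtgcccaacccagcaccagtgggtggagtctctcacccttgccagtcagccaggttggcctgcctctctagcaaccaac
H2-DMb1: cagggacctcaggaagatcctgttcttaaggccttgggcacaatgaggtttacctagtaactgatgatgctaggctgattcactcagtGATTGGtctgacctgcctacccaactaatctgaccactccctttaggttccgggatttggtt
H2-Oa: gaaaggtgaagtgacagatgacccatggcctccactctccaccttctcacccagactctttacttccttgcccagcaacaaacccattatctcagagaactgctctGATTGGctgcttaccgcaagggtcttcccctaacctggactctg
H2-Ob: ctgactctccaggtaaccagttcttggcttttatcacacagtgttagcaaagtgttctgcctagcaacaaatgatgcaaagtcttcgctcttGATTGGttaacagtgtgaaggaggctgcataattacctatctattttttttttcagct
In these windows, picked for a match, GATTGG began 60 bases before the start in H2-Eb1, 49 in H2-Aa, 101 in H2-Eb2, 62 in H2-DMb1, 44 in H2-Oa and 58 in H2-Ob. It thus lay within 44 to 62 bases in 5 of the 6 genes and farther out in H2-Eb2. H2-Eb1 held a second match on the opposite strand at 35. H2-DMa, also lower in T-DCs, had no match at 1 of its starts and a match at 199 bases at the other. In H2-DMb2, not shown because it is nearly a copy of H2-DMb1, it began at 91. Searched on both strands over the 250 bases before the start, GATTGG was found in 10 of the 12 class II list members in the promoter table (83.3%), against 22.8% of all 8449 tested genes in it. The share was 21.1% over the genes lower in T-DCs and 22.9% over the higher ones. A match describes the letters in the window and is not a measurement of binding.

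Transcripts of class I presentation differed much less. B2m, the light chain of every class I molecule, was at 3421, 2844 and 2373 FPKM in T-DCs and at 2834, 2802 and 2755 FPKM in T-mDCs. The groups overlapped and the difference was 0.03 (adjusted p = 0.943). H2-K1 and H2-D1, the classical heavy chains, did not pass at -0.11 (adjusted p = 0.735) and 0.37 (adjusted p = 0.343). Tap1, a subunit of the peptide transporter, was at 34.6, 40.5 and 35.4 FPKM against 69.3, 98.1 and 97.2 FPKM, without overlap, and its difference of -1.22 (SE 0.18, adjusted p = 0.00408, averaged 0.0314) held in all 20 refits. Of 17 tested members, 8 were lower and none was higher, with a median of -0.64, but only Tap1 kept its call with T-mDC 2 and 3 averaged. Among the others, Psmb9, an immunoproteasome subunit, differed by -1.40 (adjusted p = 0.0103, averaged 0.0580), Psme2, an activator of the proteasome, by -1.43 (adjusted p = 0.0104, averaged 0.0582), and Nlrc5, the class I transactivator, by -1.48. Without T-mDC 2 alone, 7 of the 8 calls ended, with adjusted p from 0.0582 to 0.188, and 7 ended without T-mDC 3, with 0.0587 to 0.196. Without T-DC 2 the list had 4 lower genes and without T-DC 3 it had 3.

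**Figure D3:**
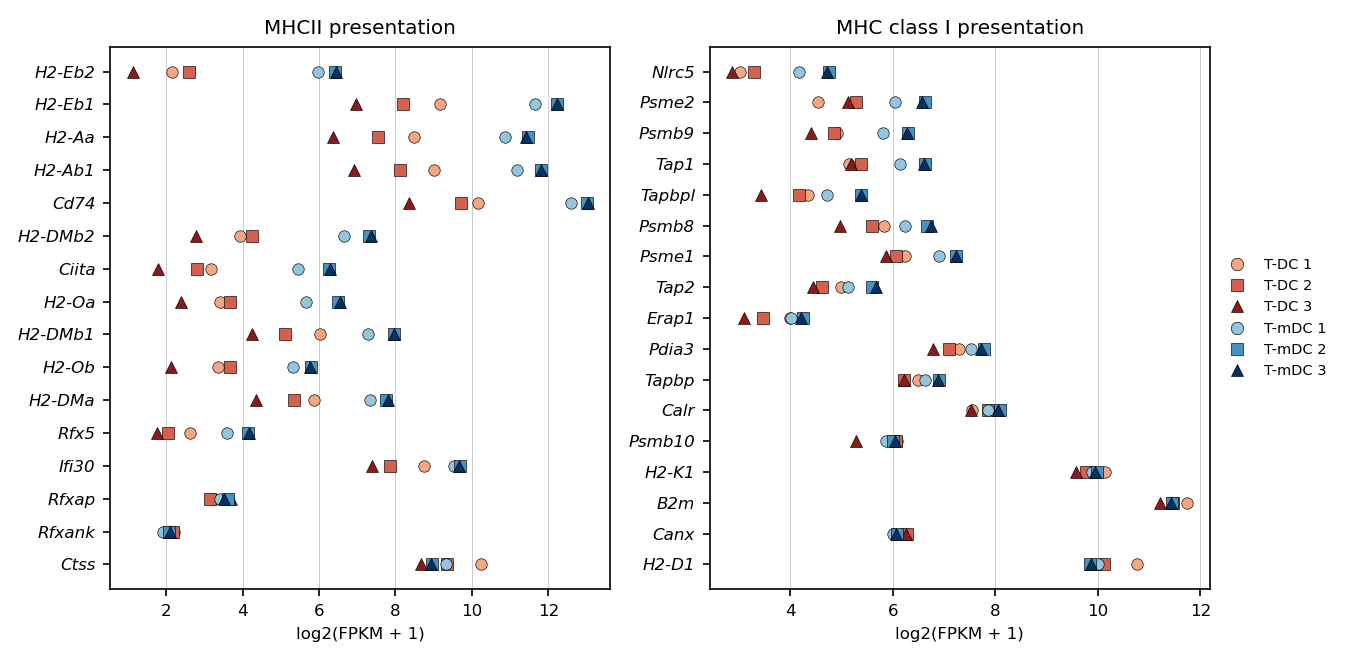
Levels, as log2(FPKM + 1) on the horizontal axis, of the tested MHCII presentation genes (left panel) and MHC class I presentation genes (right panel), 1 point per library, ordered by their difference. The groups are separated for the called MHCII genes (median of the list -2.84), while H2-K1, H2-D1 and B2m overlap (median of the class I list -0.64).

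Itgax, the gene of the CD11c protein used in the sort, was at 152, 90.4 and 43.0 FPKM in T-DCs and at 159, 166 and 167 FPKM in T-mDCs. The difference was -0.96 (SE 0.40, adjusted p = 0.147) and passed only when T-DC 1 was left out (adjusted p = 0.0110). Both populations thus held the transcript of the shared sort marker, with T-DC 3 lowest.

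Costimulatory genes were lower in T-DCs for 7 of 9 tested members, 5 of them also with T-mDC 2 and 3 averaged, and none was higher (median -2.80). Icosl, the ligand of the costimulator Icos, was at 8.47, 4.58 and 3.65 FPKM in T-DCs and at 63.8, 124 and 122 FPKM in T-mDCs. The difference was -4.00 (SE 0.39, adjusted p = 0.00133, averaged 0.0108). Cd40, the receptor through which helper T cells license DCs, was at 1.95, 2.05 and 0.986 FPKM in T-DCs and at 15.3, 29.3 and 30.6 FPKM in T-mDCs, a difference of -3.26. Cd83, a surface marker of mature DCs, was at 48.4, 34.3 and 13.01 FPKM against 181, 283 and 291 FPKM, a difference of -3.09. Tnfsf9, the ligand of 4-1BB, was at 1.17, 1.35 and 0.306 FPKM against 10.02, 13.8 and 12.6 FPKM, with a difference of -2.80 (SE 0.25, adjusted p = 0.00103, averaged 0.0106). Cd80 and Cd86, the ligands of Cd28, stood apart from these. Cd80 differed by -2.25 (adjusted p = 0.0118, averaged 0.0591), and its adjusted p was 0.0597 without T-mDC 2 and 0.0592 without T-mDC 3. Cd86 was at 52.2, 17.1 and 11.1 FPKM against 52.3, 59.1 and 59.2 FPKM, so T-DC 1 was level with T-mDC 1, and the difference of -1.35 did not pass (adjusted p = 0.0821), although it did without T-DC 1 (adjusted p = 0.000293). Icam1, an adhesion ligand of T cells, differed by -1.66 (adjusted p = 0.0367, averaged 0.132), a call that was kept without T-DC 1 and lost without any other single library (adjusted p from 0.0514 without T-mDC 1 to 0.135 without T-mDC 2).

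Among genes known to restrain T cells, the called ones were all lower. Of 16 tested coinhibitory and suppressive genes, 5 were lower (31.25%, against 9.10% of all tested genes), none was higher and 11 were not called. With T-mDC 2 and 3 averaged 4 of the 5 were kept, where 4.07% of all tested genes were lower. The median of the list was -0.29. Ptgs2, the cyclooxygenase that makes prostaglandins, was at 2.22, 3.27 and 0.661 FPKM in T-DCs and at 31.1, 43.8 and 45.1 FPKM in T-mDCs, a difference of -3.83 (SE 0.39, adjusted p = 0.00154, averaged 0.0116). Cd200, a ligand of an inhibitory receptor, and Adora2a, an adenosine receptor, differed by -3.06 and -2.43. Ido1, which degrades tryptophan, was low throughout, at 0.122, 0.0354 and 0.0361 FPKM against 1.68, 2.07 and 1.49 FPKM, with a difference of -1.36 (adjusted p = 0.00387). Cd274, the gene of PD-L1, was at 60.7, 41.2 and 23.4 FPKM against 71.7, 94.3 and 95.7 FPKM and did not pass at -1.13 (adjusted p = 0.117). Arg1, an arginine-degrading enzyme of suppressive myeloid cells, did not reach the filter and reached at most 0.798 FPKM in a T-DC sample and 0.0697 FPKM in a T-mDC sample.

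Most of the tested cytokine and chemokine genes did not pass, and those called were lower with 1 exception. Il12b (chromosome 11, 44400063 to 44414033), the p40 chain of IL-12 and IL-23, was at 12.3, 6.43 and 1.67 FPKM in T-DCs and at 125, 126 and 123 FPKM in T-mDCs. The T-mDC samples were level with each other, the T-DC samples were spread, and the difference was -4.29 (SE 0.65, adjusted p = 0.00408, averaged 0.0226). Il6 and Lta, which encodes lymphotoxin, differed by -3.09 and -3.69, and 5 of 21 tested cytokine genes were lower with none higher (3 with T-mDC 2 and 3 averaged or without T-DC 3, T-mDC 2 or T-mDC 3, median 0.00). Cxcl16, the ligand of Cxcr6, was at 6.36, 3.14 and 1.74 FPKM against 59.7, 81.3 and 83.7 FPKM, a difference of -4.10. Cxcl9, an interferon-induced ligand of Cxcr3, was at 3.07, 2.95 and 1.55 FPKM against 30.7, 64.8 and 62.4 FPKM, a difference of -3.88. Ccl22, which draws regulatory T cells, was at 0.0240, 0.361 and 0.340 FPKM against 3.96, 7.50 and 5.47 FPKM, with a difference of -2.40 (adjusted p = 0.0102, averaged 0.0489) that ended without T-mDC 2 (adjusted p = 0.0532). Of 14 tested chemokines, 5 were lower (4 with T-mDC 2 and 3 averaged, 3 without T-mDC 2) and 1, Ccl6, a myeloid chemokine, was higher by 2.21 (adjusted p = 0.0392, averaged 0.153), with adjusted p of 0.0847 without T-DC 2, 0.0545 without T-DC 3, 0.153 without T-mDC 2, 0.151 without T-mDC 3, 0.0607 without N-mDC 2 and 0.0592 without N-mDC 3.

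Chemoattractant receptors changed in both directions. Of 30 tested, 11 were lower and 7 higher, and with T-mDC 2 and 3 averaged 8 of the lower and none of the higher calls were kept. No receptor was called higher without T-DC 2, T-mDC 2 or T-mDC 3. Gpr183, the oxysterol receptor that positions DCs in the spleen, was at 2.69, 3.49 and 1.55 FPKM in T-DCs and at 23.3, 36.6 and 35.1 FPKM in T-mDCs, with a difference of -3.20 (SE 0.27, adjusted p = 0.000916). Cxcr5, which leads cells to B-cell follicles, differed by -2.59 (SE 0.20, adjusted p = 0.000874), and Ccr6 and Cxcr3 by -2.66 and -1.80. S1pr5, a sphingosine-1-phosphate receptor of patrolling monocytes and NK cells, was at 135.8, 51.8 and 47.4 FPKM in T-DCs and at 27.0, 0.331 and 0.566 FPKM in T-mDCs, a difference of 4.18 (adjusted p = 0.0304, averaged 0.119). C5ar1, the receptor of the complement fragment C5a, was at 30.3, 20.2 and 14.4 FPKM against 6.88, 0.342 and 0.339 FPKM, a difference of 3.17 (adjusted p = 0.0183, averaged 0.0815). Cx3cr1, the fractalkine receptor, differed by 2.57 (adjusted p = 0.0309, averaged 0.124). In all 3 of these receptors T-DC 1 was the highest T-DC sample and T-mDC 1 the highest T-mDC sample, the order shown by the monocyte genes described later. Their calls ended without T-DC 2 (adjusted p from 0.0581 to 0.0834), T-mDC 2 (0.0822 to 0.125) and T-mDC 3 (0.0805 to 0.123), that of S1pr5 also without T-DC 3 (0.0633), and those of S1pr5 and Cx3cr1 without N-mDC 2 (0.0517 and 0.0522) and N-mDC 3 (0.0535 and 0.0513).

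Genes that identify conventional DCs were lower in T-DCs for both subsets. Flt3, the cytokine receptor on which DC development depends, was at 15.4, 6.11 and 4.48 FPKM in T-DCs and at 62.9, 86.6 and 89.1 FPKM in T-mDCs, a difference of -3.21 (SE 0.40, adjusted p = 0.00229, averaged 0.0153). Zbtb46, a transcription factor used to mark conventional DCs, was at 1.84, 2.84 and 3.42 FPKM against 10.7, 23.1 and 23.5 FPKM, a difference of -2.39 (SE 0.31, adjusted p = 0.00262, averaged 0.0170). Neither gene overlapped between the groups, and both stayed above 1 FPKM in every T-DC sample. Of 13 tested cDC1 genes, 12 were lower and none higher (9 with T-mDC 2 and 3 averaged, median -2.83), and the remaining gene, Snx22, a sorting nexin, did not pass at -0.84 (adjusted p = 0.363). Xcr1, the chemokine receptor that defines cDC1, was at 6.81, 1.96 and 1.02 FPKM against 25.4, 63.8 and 63.2 FPKM, a difference of -3.73 (SE 0.53, adjusted p = 0.00336, averaged 0.0208). Clec9a, the cDC1 receptor for dead cells, was at 11.4, 4.51 and 2.80 FPKM against 40.3, 66.8 and 66.8 FPKM, a difference of -3.17 (SE 0.41, adjusted p = 0.00238, averaged 0.0158). Cd8a, Tlr11 and Tlr3, a coreceptor and 2 microbial sensors of splenic cDC1, differed by -3.62, -3.58 and -2.83.

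Of 13 tested cDC2 genes, 8 were lower and none higher (6 with T-mDC 2 and 3 averaged, median -1.73). Clec4a4, the lectin read by the cDC2 antibody 33D1, was at 7.34, 3.49 and 2.89 FPKM in T-DCs and at 37.8, 65.7 and 63.4 FPKM in T-mDCs, a difference of -3.39. Cd209a, a C-type lectin, and Tmem176a, a membrane channel protein, differed by -2.52 and -3.08. Sirpa, a receptor shared by cDC2 and macrophages, went otherwise, with 404, 177 and 100 FPKM against 230, 130 and 124 FPKM, overlapping groups and a difference of 0.32 (adjusted p = 0.677). The summed FPKM of the cDC1 list was 214, 131 and 76.7 in T-DC 1, 2 and 3 and 586, 974 and 985 in the T-mDC samples, and that of the cDC2 list was 499, 263 and 135 against 550, 527 and 518. T-DC 1 therefore held most of both in its group, and T-DC 3 least.

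Among transcription factors of the DC lineage, 10 of 20 tested were lower and none was higher, 5 of them also with T-mDC 2 and 3 averaged (median -1.07). Mycl, a Myc family member of DCs, and Spib, an ETS factor, differed by -3.10 and -2.46. Irf8, which cDC1 require, was at 90.2, 36.4 and 26.3 FPKM against 136, 180 and 181 FPKM, a difference of -1.87 (adjusted p = 0.0181, averaged 0.0806). Its adjusted p was 0.0680 without T-DC 2, 0.0813 without T-mDC 2 and 0.0802 without T-mDC 3. Batf3, the partner of Irf8 in cDC1, differed by -2.5015 (adjusted p = 0.0131, averaged 0.0613), and Irf4, a factor of cDC2, by -1.63 (adjusted p = 0.0187, averaged 0.0819). Both calls ended without T-mDC 2 (0.0622 and 0.0839) and T-mDC 3 (0.0602 and 0.0804), and that of Irf4 also without T-DC 3 (0.0586). Of 18 tested general myeloid factors, none was called in either direction by limma or voom, and 4 higher and 1 lower had an unadjusted p under 0.05. Without T-DC 1, 3 were lower, in a fit that called 17.5% of all tested genes lower. Without T-mDC 1, 2 were higher, in a fit that called 746 of the 11959 tested genes higher. Cebpb, a factor of monocytes and inflammation, was at 931, 262 and 267 FPKM in T-DCs and at 216, 22.6 and 25.3 FPKM in T-mDCs, a difference of 2.98 (adjusted p = 0.0550). T-DC 1 was highest for Cebpb and T-DC 2 and 3 lay only slightly above T-mDC 1.

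Over all 675 tested transcription factors that the table annotates, 36 were higher (5.33%) and 71 lower (10.5%), shares near the 5.98% and 9.10% of all tested genes. With T-mDC 2 and 3 averaged 9 and 29 of these were kept. Nr4a3, an orphan nuclear receptor induced by activation, was at 0.578, 1.49 and 0.0550 FPKM in T-DCs and at 15.8, 37.9 and 39.9 FPKM in T-mDCs, a difference of -4.22 (SE 0.48, adjusted p = 0.00169, averaged 0.0125). Etv3, an ETS family repressor, was at 9.82, 7.03 and 3.37 FPKM against 65.4, 108 and 109 FPKM, a difference of -3.68. Aire, best known for self-antigen expression in the thymus, was at 0.0292, 0.101 and 0.0344 FPKM against 3.39, 9.27 and 10.2 FPKM, a difference of -2.92. Ahr, the aryl hydrocarbon receptor, and Zfp366, a zinc-finger factor of DCs also named DC-SCRIPT, differed by -3.07 and -3.51. Higher in T-DCs were Lyl1, a hematopoietic bHLH factor, at 112, 146 and 97.8 FPKM against 37.0, 15.4 and 14.7 FPKM (difference 2.47, SE 0.39, adjusted p = 0.00523, averaged 0.0298), and Mxi1, an antagonist of Myc, at 16.8, 27.7 and 20.2 FPKM against 6.78, 4.95 and 5.18 FPKM (difference 1.75, SE 0.21, adjusted p = 0.00199, averaged 0.0153). Nfe2 and these genes were separated between the groups in all 6 samples. Lyl1 lies within the span of Nfix, a gene on the other strand that was also higher, by 1.15 (adjusted p = 0.00856, averaged 0.0483). Reads could therefore be shared between Lyl1 and Nfix. By family, 4 of 18 ETS factors, 4 of 9 Rel homology factors and 2 of 8 IRF factors were lower with none higher, 2 of 8 GATA-type factors were higher with none lower, and bHLH factors were split, with 4 higher and 4 lower of 36. With T-mDC 2 and 3 averaged, 3 ETS factors and 1 Rel homology factor kept the lower call, 2 bHLH factors kept it in each direction, and no IRF or GATA-type factor was called. Without T-DC 1, 7 ETS, 7 Rel homology and 4 IRF factors were lower, in a fit that called 17.5% of all tested genes lower.

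The 4 lower Rel homology factors were Relb, Nfkb2, Rel and Nfatc2, of which Relb and Nfkb2 form the noncanonical arm of NF-kB signalling that CD40 and lymphotoxin receptors engage. Relb was at 19.2, 14.4 and 8.43 FPKM in T-DCs and at 110, 154 and 159 FPKM in T-mDCs, a difference of -3.29 (SE 0.32, adjusted p = 0.00133, averaged 0.0116). Traf1, an adaptor of TNF receptors, differed by -3.25, and Birc2, a ubiquitin ligase of the same pathway, was at 12.2, 14.9 and 10.3 FPKM against 52.5, 72.3 and 72.0 FPKM, a difference of -2.31. Nfkb2, which encodes the partner of Relb, differed by -1.54 (adjusted p = 0.0102, averaged 0.0548) and ended without T-mDC 2 (adjusted p = 0.0544) and without T-mDC 3 (adjusted p = 0.0558). Of 23 tested genes of the pathway, 11 were lower, 3 of them also with T-mDC 2 and 3 averaged, and the median was -1.04. The count was 19 without T-DC 1 and 7 without T-DC 2 or T-DC 3. A single member was higher, Ikbke, an IkB kinase of the interferon arm, at 18.0, 20.03 and 8.46 FPKM against 3.80, 0.608 and 0.488 FPKM (difference 2.79, SE 0.49, adjusted p = 0.00759, averaged 0.0390). The kappa-B motif, searched on both strands over 250 bases before the start, was found in 7 of 19 pathway members in the promoter table, in 14.5% of the genes lower in T-DCs, in 11.5% of the higher genes and in 10.5% of all tested genes. Nfkb2 held matches, whereas Traf1, Fscn1, Apol7c, Cacnb3, Mreg and Il12b, which were also lower, held none. The promoter of Icosl, a costimulatory gene outside the pathway list, is shown only because it has such a match. The match is in capitals, on the opposite strand (chr10:78069218-78069367, GRCm38.p6).
Icosl: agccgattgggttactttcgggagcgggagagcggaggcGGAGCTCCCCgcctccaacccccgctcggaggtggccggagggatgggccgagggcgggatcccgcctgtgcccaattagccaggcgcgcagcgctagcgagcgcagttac
Immediate early genes, which respond within minutes to stimulation and to cell isolation, were lower for 5 of 24 tested members and higher for none (2 with T-mDC 2 and 3 averaged, median -0.63). Without T-DC 1, 13 of the 24 were lower, with a median of -1.16. Egr3 differed by -3.13 (adjusted p = 0.00640, averaged 0.0345) and Atf3 by -2.88 (adjusted p = 0.0110, averaged 0.0559), with 0.0555 without T-mDC 2 and 0.0564 without T-mDC 3 for Atf3.

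Genes higher in T-DCs were fewer and rested more on single libraries. Among the 15 with the widest upward gap, 6 kept their call with T-mDC 2 and 3 averaged, and these 6 also kept it in all 20 refits. Nfe2 (chromosome 15, 103248212 to 103258403), a transcription factor of red cells and platelets that is also present in myeloid cells, was at 32.6, 134 and 88.0 FPKM in T-DCs and at 5.85, 0.450 and 0.564 FPKM in T-mDCs. T-DC 1 was lowest in its group and T-mDC 1 highest in its own, and the difference was 4.89 (SE 0.73, adjusted p = 0.00393, averaged 0.0226). Emilin2 (chromosome 17, 71252172 to 71311978), a matrix glycoprotein, was level within T-DCs at 59.7, 65.8 and 60.2 FPKM against 13.9, 2.41 and 2.75 FPKM. Its difference was 3.45 (SE 0.63, adjusted p = 0.00948, averaged 0.0478). Trem3, a myeloid activating receptor, was at 45.2, 52.8 and 25.2 FPKM against 8.42, 2.29 and 1.81 FPKM, a difference of 3.18 (SE 0.50, adjusted p = 0.00504, averaged 0.0271).

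Tmc6 and Tmc8, neighbouring genes of transmembrane channel-like proteins, were both higher in T-DCs. Tmc6 was at 68.5, 77.8 and 61.1 FPKM against 21.6, 9.44 and 9.61 FPKM (difference 2.36, SE 0.31, adjusted p = 0.00276, averaged 0.0176). Tmc8 was at 20.7, 32.1 and 31.4 FPKM against 6.88, 2.54 and 2.62 FPKM (difference 2.62, SE 0.33, adjusted p = 0.00229, averaged 0.0153). The genes share 123 bases on opposite strands. Pheta2, an adaptor of endosomal recycling whose reads may be shared with the overlapping gene Smdt1, was at 10.2, 32.9 and 30.9 FPKM against 3.10, 0.719 and 1.00 FPKM, a difference of 3.25 (adjusted p = 0.00343, averaged 0.0209). Hp, which encodes haptoglobin, and Chil3, a chitinase-like protein of myeloid cells, were among the 9 whose call ended. Hp was at 186, 128 and 89.5 FPKM against 32.4, 0.387 and 0.474 FPKM, a difference of 4.99 (adjusted p = 0.0268, averaged 0.110), and its adjusted p was 0.0802 without T-DC 2, 0.0605 without T-DC 3, 0.109 without T-mDC 2 and 0.110 without T-mDC 3. Chil3 was at 108, 528 and 240 FPKM against 20.4, 1.43 and 1.87 FPKM, a difference of 5.51 (adjusted p = 0.0299, averaged 0.117), with 0.103 without T-DC 2, 0.0792 without T-DC 3, 0.119 without T-mDC 2 and 0.115 without T-mDC 3.

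Nonclassical monocyte genes formed the most complete group of higher calls among myeloid lists: 11 of 12 tested members were higher, none was lower and the median was 2.24. Ace (chromosome 11, 105967945 to 105989964), the angiotensin-converting enzyme of these monocytes, was at 425, 175 and 157 FPKM in T-DCs and at 81.1, 5.06 and 4.65 FPKM in T-mDCs, a difference of 4.01 (SE 0.96, adjusted p = 0.0265, averaged 0.109). Fcgr4, an activating Fc receptor counted in the uptake list and not in this one, was at 1637, 1010 and 566 FPKM against 407, 56.0 and 54.4 FPKM. Its difference was 3.17 (adjusted p = 0.0248, averaged 0.105). Spn, the gene of CD43, was at 249, 145 and 129 FPKM against 72.1, 15.98 and 15.7 FPKM, a difference of 2.61 (adjusted p = 0.0194, averaged 0.0866). In each of these genes T-DC 1 was the highest of all samples, and T-mDC 1 lay closer to the T-DC samples than T-mDC 2 and 3 did. None of the 11 calls held with T-mDC 2 and 3 averaged (adjusted p from 0.0549 to 0.185), without T-mDC 2 (0.0550 to 0.185) or without T-mDC 3 (0.0554 to 0.183), 2 held without T-DC 2 (adjusted p of the 9 lost from 0.0543 to 0.135), 9 held without T-DC 1 or without T-DC 3, 4 held on the TPM scale and 1 held when only the 6 samples were fitted. Without N-mDC 1, N-mDC 2 and N-mDC 3 there were 8, 7 and 5 calls. Pglyrp1, a peptidoglycan-binding protein, came nearest, at 187, 92.1 and 79.3 FPKM against 37.8, 15.3 and 14.7 FPKM (difference 2.38, adjusted p = 0.0106, averaged 0.0549).

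The summed FPKM of this list was 4010, 1940 and 1434 in T-DC 1, 2 and 3 and 1189, 483 and 489 in T-mDC 1, 2 and 3, so the groups did not overlap in sum. Macrophage genes summed to 5366, 1991 and 1424 FPKM against 2296, 738 and 730 FPKM, with all 14 tested members in the higher direction (median 0.94) but only Marco, a scavenger receptor, called (difference 2.45, adjusted p = 0.0492, averaged 0.182), a call that was kept without T-mDC 1 and lost without any other single library (adjusted p from 0.0535 without T-DC 3 to 0.183 without T-mDC 2). Csf1r, the receptor of macrophage growth factor, was at 609, 281 and 176 FPKM against 203, 64.1 and 63.3 FPKM and did not pass at 1.72 (adjusted p = 0.0695). Adgre1, the gene of F4/80, and C1qa, a complement component of macrophages, did not pass at 1.47 (adjusted p = 0.0821) and 0.92 (adjusted p = 0.359). Lyz2, the myeloid lysozyme, was at 1400, 921 and 648 FPKM against 513, 182 and 184 FPKM, a difference of 1.87 whose call ended without T-DC 1, 2 or 3 (0.0511, 0.109 and 0.0535), T-mDC 2 or 3 (0.161 and 0.157) and N-mDC 2 or 3 (0.0613 and 0.0535). Of 8 classical monocyte genes 2 were higher, with sums of 1699, 1674 and 1048 FPKM against 739, 374 and 374 FPKM. Of 8 red pulp macrophage genes 1 was higher, Treml4, which is also among the called genes of the nonclassical monocyte list. The red pulp sums were 2117, 665 and 394 FPKM against 975, 226 and 225 FPKM, so that T-mDC 1 lay within the T-DC range. None of these 3 calls held with T-mDC 2 and 3 averaged or without T-DC 2, T-mDC 2 or T-mDC 3, and the classical monocyte calls also ended without T-DC 3. The part of such cells in the lower DC genes or the higher myeloid genes of T-DCs was not tested.

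**Figure D4:**
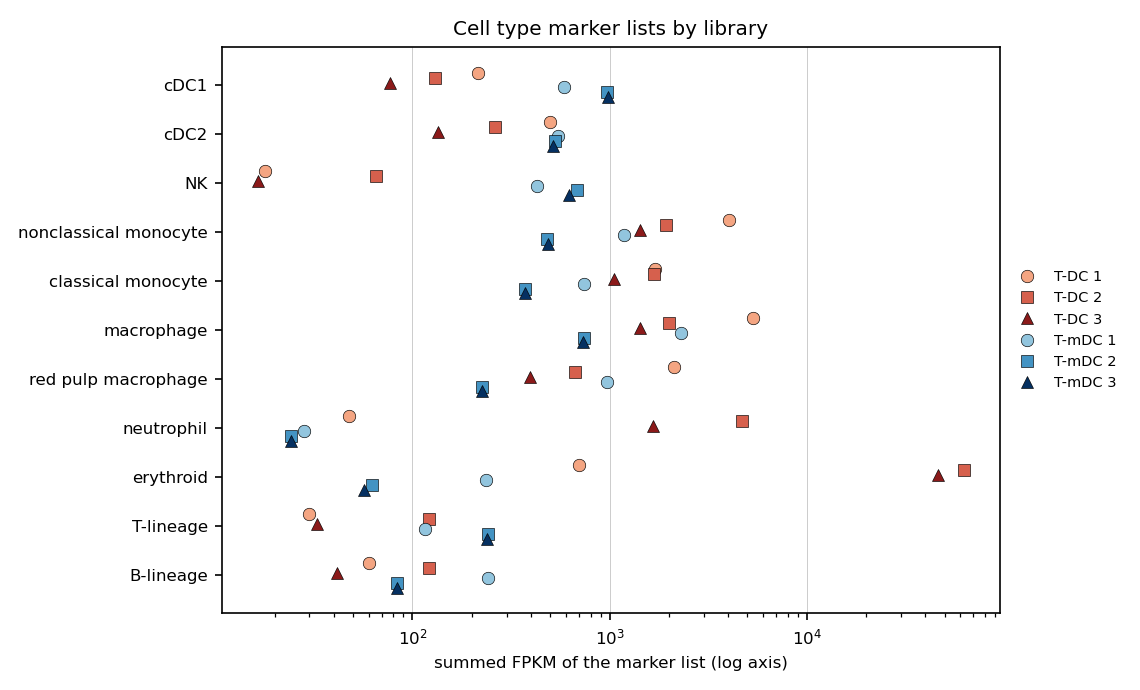
Summed FPKM of each cell type marker list on a log horizontal axis, 1 point per T-DC or T-mDC library. Erythroid genes summed to 63035 and 46061 FPKM in T-DC 2 and 3 against 702 in T-DC 1, and nonclassical monocyte genes were highest in T-DC 1 at 4010.

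Uptake receptors and complement genes had calls in the higher direction only. Of 27 tested uptake receptors 26 lay in the higher direction (median 0.74) and 4 were called higher, and of 13 complement genes 6 were called higher and none lower (median 0.92). None of these 10 calls held with T-mDC 2 and 3 averaged, where adjusted p ran from 0.0917 to 0.182 for uptake and from 0.0682 to 0.152 for complement, and none held without T-DC 2, T-mDC 2 or T-mDC 3. Without T-mDC 1, 9 uptake receptors were higher, and without T-DC 3 or N-mDC 3 the complement calls numbered 3 and 2. Toll-like receptors and their adaptors were mixed, with 5 lower and 2 higher of 17 (2 and none with T-mDC 2 and 3 averaged). Without T-DC 2 and without T-DC 3, 2 were lower. Lysosomal genes were largely uncalled, with 4 higher and 3 lower of 34, shares of 11.8% and 8.82% near those of all tested genes. With T-mDC 2 and 3 averaged none was higher and 1 was lower. Without T-DC 1 the counts were 3 and 8, in a fit that called 19.0% of all tested genes higher and 17.5% lower. Without T-mDC 1 the counts were 7 and 1.

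Red cell transcripts were the largest differences in size and belonged to T-DC 2 and T-DC 3. Hbb-bt, an adult beta-globin gene, was at 68.6, 8485 and 5521 FPKM in T-DC 1, 2 and 3 and at 18.7, 1.77 and 1.39 FPKM in T-mDC 1, 2 and 3. T-DC 1 lay nearer to T-mDC 1 than to the other T-DC samples, and the difference of 8.19 (SE 1.98, adjusted p = 0.0269, averaged 0.106) was the largest among the 15 upward genes. Slc4a1, the anion exchanger of the red cell membrane, was at 21.3, 1878 and 1304 FPKM against 5.61, 0.465 and 0.389 FPKM, a difference of 7.32 (SE 1.65, adjusted p = 0.0212, averaged 0.0882). Alas2, the first enzyme of red cell heme synthesis, was at 10.2, 1080 and 478 FPKM against 2.40, 0.151 and 0.204 FPKM, a difference of 6.75 (SE 1.68, adjusted p = 0.0302, averaged 0.110). Alas2 lies across the gene Apex2 on the other strand, and the 2 alpha-globin and 2 beta-globin genes share much sequence, so reads could be split between them. Over the list, 19 of 21 tested genes were higher and none lower, with a median of 5.66, and summed FPKM was 702, 63035 and 46061 in T-DCs and 236, 62.0 and 56.9 in T-mDCs. None of the 19 calls held with T-mDC 2 and 3 averaged, without T-DC 2, without T-mDC 2 or without T-mDC 3, and 1 held without T-DC 3, whereas all 21 genes were called without T-DC 1. Without T-mDC 1 there were 11 calls, and without N-mDC 2 and N-mDC 3 there were 12 and 3. For the 7 red cell genes among the 15 upward leaders, adjusted p was between 0.0752 and 0.113 without T-DC 2, between 0.0714 and 0.102 without T-DC 3, and between 0.0882 and 0.122 with T-mDC 2 and 3 averaged.

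Regulators of the red cell lineage were present with its products. Klf1, the erythroid Kruppel-like factor, was at 3.65, 278 and 348 FPKM in T-DCs and at 1.14, 0.135 and 0.249 FPKM in T-mDCs, a difference of 5.73 (adjusted p = 0.0315). Gata1, Tal1 and Epor, the lineage's main transcription factors and its cytokine receptor, differed by 4.75, 5.33 and 4.30. None of these 4 calls held without T-DC 2 (adjusted p from 0.0596 to 0.150), T-mDC 2 (0.0686 to 0.140) or T-mDC 3 (0.0698 to 0.138), and only Epor was kept without T-DC 3. Klf1, Gata1 and Tal1 also ended without T-mDC 1 (0.0511 to 0.0783) and N-mDC 3 (0.0552 to 0.0735). The promoter of Alas2 (chrX:150547267-150547416, GRCm38.p6) is shown because AGATAA, the core bound by GATA factors, stands in it on the opposite strand, 86 bases before the start and in capitals here as its reverse complement.
Alas2: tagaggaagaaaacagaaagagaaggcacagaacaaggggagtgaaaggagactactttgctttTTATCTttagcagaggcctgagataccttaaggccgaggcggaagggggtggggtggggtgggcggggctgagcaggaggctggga
AGATAA, searched on both strands over 250 bases before the start, was found in 5 of 15 erythroid list members in the promoter table, in 11.0% of the genes higher in T-DCs, in 8.10% of the lower ones and in 7.01% of all tested genes. Hbb-bt, Klf1 and Emilin2, which were also higher, held no match.

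Neutrophil and cell cycle genes varied within the T-DC group in the same way. S100a9, an abundant neutrophil protein, was at 5.03, 1754 and 551 FPKM in T-DCs and at 1.73, 7.73 and 5.73 FPKM in T-mDCs, so T-DC 1 was within the T-mDC range and the difference of 5.05 did not pass (adjusted p = 0.105, and 0.000849 without T-DC 1). Neutrophil genes summed to 47.6, 4697 and 1665 FPKM against 28.3, 24.2 and 24.1 FPKM. Of 18 listed genes only 7 reached the filter. The others, untested, included genes high in T-DC 2 and 3 alone, such as Lcn2 (0.511, 154 and 52.0 FPKM in T-DCs) and Elane (0, 83.2 and 32.9 FPKM). Of the 7 tested, 1 was called higher (6 without T-DC 1). It was Retnlg, a resistin-like protein, at 3.36 (adjusted p = 0.0208), lost without T-DC 2 (0.0722), T-DC 3 (0.0666), T-mDC 2 (0.0904) or T-mDC 3 (0.0814). Mki67, the proliferation antigen, was at 8.25, 247 and 183 FPKM against 21.9, 36.2 and 34.3 FPKM, so T-DC 1 was the lowest of the 6 samples and T-DC 2 and 3 the highest. It did not pass with all samples (difference 1.27, adjusted p = 0.446) and did without T-DC 1 (adjusted p = 0.000156). Of 40 tested cell cycle genes, 1 was higher and 1 lower with all samples, and 36 were higher and 1 lower without T-DC 1. The lower gene was Ccnd1, cyclin D1, at -2.69, and the higher one was Ccnd3, cyclin D3, at 27.0, 58.7 and 63.0 FPKM against 16.5, 14.6 and 13.7 FPKM, a difference of 1.58 (adjusted p = 0.0121, averaged 0.0584) that was lost without T-DC 2 (0.0509), T-mDC 2 (0.0570) or T-mDC 3 (0.0611).

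Defining T-cell transcripts were low. Cd3e, a chain of the T-cell receptor complex, did not exceed 1.28 FPKM in any of the 6 samples, and Cd3d reached 5.94 FPKM in T-DC 2. Of 8 tested T-lineage genes 3 were lower in T-DCs, and 4 of the 8 lay in the higher direction. Over the whole list the sum was 29.9, 122 and 32.6 FPKM against 116, 243 and 238 FPKM. Tcf7 alone was at 1.64, 21.1 and 2.96 FPKM against 49.2, 116 and 114 FPKM, and Cd8a and Cd4 are also in the cDC1 and cDC2 lists. Of 7 tested NK genes 4 were lower, among them Ccl5 and Klrd1, a lectin-like receptor chain (difference -2.21), and 3 lay in the higher direction without a call. Of 10 tested B-cell genes 3 were lower, with a sum of 60.4, 121 and 41.4 FPKM against 242, 83.2 and 83.6 FPKM. Of 11 tested plasmacytoid DC genes 2 were lower and none higher, though 6 lay in the higher direction (median 0.86), and 5 were higher without T-mDC 1. Plasma cell genes were uncalled (0 of 9 by limma or voom, none at an unadjusted p under 0.05) but uneven, at 1102, 11529 and 5717 FPKM against 4690, 501 and 515 FPKM, highest in T-DC 2. Without T-DC 1, 2 of them were higher, in a fit that called 19.0% of all tested genes higher. How far these cells entered the results was not tested.

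**Figure D5:**
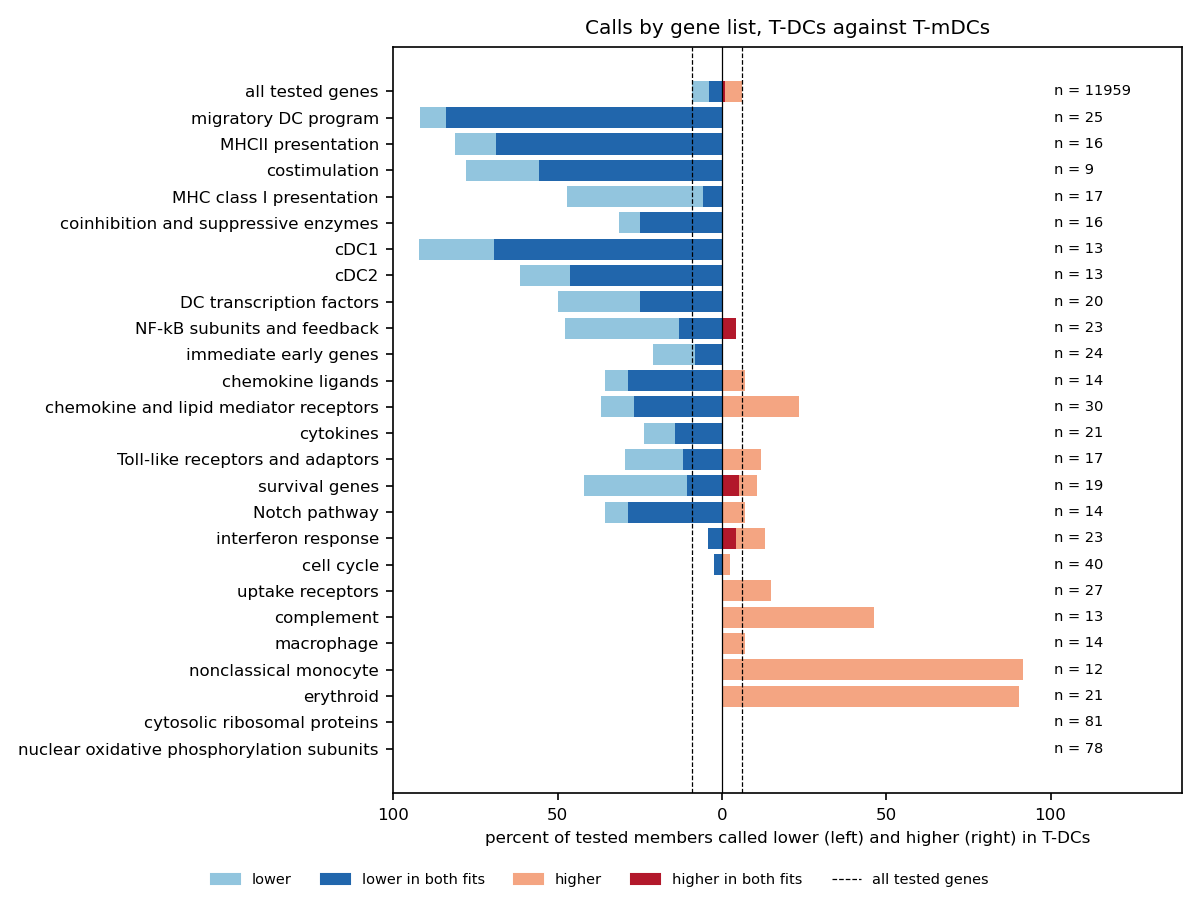
Percent of the tested members of each gene list called lower (bars to the left) and higher (bars to the right) in T-DCs, with dark bars for calls also made with T-mDC 2 and 3 averaged, n for the members tested and dashed lines for all tested genes. Lower calls of the migratory (23 of 25) and MHCII (13 of 16) lists were largely kept (21 and 11), whereas none of the 19 higher erythroid and 11 higher nonclassical monocyte calls was.

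Notch pathway genes are of interest in cells that share a spleen with a Notch1-driven leukemia. Of 14 tested, 5 were lower and 1 higher (4 lower and none higher with T-mDC 2 and 3 averaged, median -0.38). Dll4, a ligand that instructs T cells, was at 0.623, 0.201 and 0.137 FPKM in T-DCs and at 12.4, 15.1 and 16.6 FPKM in T-mDCs, a difference of -3.58 (SE 0.34, adjusted p = 0.00126, averaged 0.0106). Dtx1, a Notch target and regulator, was at 1.10, 5.58 and 1.21 FPKM against 18.7, 45.0 and 43.8 FPKM, a difference of -3.46, and Notch4 and Jag2, a receptor and a ligand, differed by -2.41 and -2.03. No T-DC sample reached the lowest T-mDC sample in these genes.

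Among growth factor receptors, 3 of 20 tested genes were lower (15%) and 2 higher (10%), beside 9.10% and 5.98% of all tested genes. Without T-DC 1, 7 were lower, in a fit that called 17.5% of all tested genes lower. Igf1r, the insulin-like growth factor receptor, was at 1.998, 1.79 and 2.0004 FPKM in T-DCs and at 0.681, 0.327 and 0.272 FPKM in T-mDCs, a difference of 1.05 (adjusted p = 0.00747, averaged 0.0449), and was low in both. Kit, the stem cell factor receptor, was at 2.91, 5.97 and 12.6 FPKM against 21.7, 35.4 and 35.5 FPKM, a difference of -2.12 (adjusted p = 0.0186, averaged 0.0821), with 0.0618 without T-DC 2, 0.0834 without T-mDC 2 and 0.0816 without T-mDC 3. Survival genes were divided, with 8 lower and 2 higher of 19 (2 and 1 with T-mDC 2 and 3 averaged, 4 and 1 without T-DC 2, 5 and 2 without T-DC 3). Bbc3, the proapoptotic protein Puma, was at 30.0, 35.5 and 24.6 FPKM against 13.4, 10.4 and 10.7 FPKM, a difference of 1.31 (adjusted p = 0.00504, averaged 0.0333). Bcl2, which opposes it, was also higher at 1.26 (adjusted p = 0.0160, averaged 0.0790), and Bcl2l11, the proapoptotic Bim, was lower at -1.27 (adjusted p = 0.00959, averaged 0.0517). Without T-mDC 2 and without T-mDC 3 both calls ended (0.0789 and 0.0794 for Bcl2, 0.0525 and 0.0510 for Bcl2l11), and that of Bcl2 also without T-DC 2 (0.0623).

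Interferon-induced genes were mostly uncalled with all samples, with 3 higher and 1 lower of 23 (1 and 1 with T-mDC 2 and 3 averaged, and also without T-DC 2, median 0.34). Without T-DC 1 the counts were 9 higher and 1 lower, with a median of 0.86. Zbp1, a sensor of nucleic acids, was at 25.3, 28.2 and 19.0 FPKM against 8.05, 7.89 and 7.29 FPKM, a difference of 1.51 (SE 0.20, adjusted p = 0.00280, averaged 0.0204), whereas Mx1, an antiviral GTPase, differed by -1.81. Glycolytic genes were mostly uncalled, with 2 higher and 2 lower of 24, 8.33% in each direction and near the shares of all tested genes. Without T-DC 1 the counts were 5 and 5, in a fit that called 19.0% of all tested genes higher and 17.5% lower. Of the calls with all samples, only the 2 lower ones were kept with T-mDC 2 and 3 averaged. These were Pfkfb3, which drives the pathway's control point, at 18.5, 10.2 and 6.69 FPKM against 57.4, 75.9 and 77.9 FPKM (difference -2.57, adjusted p = 0.00949, averaged 0.0474), and Eno2, an enolase, at 0.475, 0.603 and 0.0700 FPKM against 7.58, 14.2 and 14.1 FPKM (difference -3.20, adjusted p = 0.00163, averaged 0.0124). None of 81 ribosomal protein genes was called by limma, 0 had an unadjusted p under 0.05, and voom called none, with a median of -0.11, though 3 were lower on the TPM scale. None of 78 oxidative phosphorylation genes was called either, by limma or voom, and 13 lay higher at an unadjusted p under 0.05. The same number was called higher without T-DC 1, in a fit that called 19.0% of all tested genes higher. The median was 0.35 with all samples and 0.02 on the TPM scale.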

How the data were processed

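CD11c-enriched, FACS-sorted spleen DCs were sequenced in 9 samples, 3 each of T-DCs, T-mDCs and N-mDCs, grouped by their labels. The authors deposited gene FPKM values on mm10; aligner, counter and annotation are not given in the sources used here. Low FPKM values were whole multiples of 1 read per gene length, from which reads were recovered. Genes with FPKM of at least 1 in 3 of the 6 samples compared were kept, and log2(FPKM + 1) was fitted in all 9 samples with limma 3.58.1 (R 4.3.3, lmFit, contrasts.fit, eBayes with trend). Benjamini-Hochberg adjustment ran over all 11959 genes at 0.05; fold changes on this scale understate those of low genes. The script was tested on simulated data. Of the tested genes, 11954 were found in GENCODE M21 (GRCm38), 95.8% of them with the same coordinates. Promoters came from a RefSeq table. Members and gene lists were chosen with earlier results of these data known. Named genes were the 15 with the widest gap in each direction, up to 3 called genes per list and direction, list-defining genes, Itgax, MHCII genes and markers of other cells. The 20 refits changed 1 choice each (scaling, filter, pseudocount, prior, block, averaging of T-mDC 2 and 3, voom, 1 library left out); a minimum change was a further alternative. Depth was 15360815 to 18440913 reads on genes.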

Additional observations from a re-analysis of the deposited data

How the results depend on the processing

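With T-mDC 2 and 3 averaged, 108 genes were higher and 487 lower. Leaving out 1 library gave 103 to 2274 higher genes and 482 to 2087 lower genes. In both directions the most were called without T-DC 1, and the fewest higher genes were called without T-mDC 2 and the fewest lower genes without T-mDC 3. Without the filter on low values 335 genes were higher, on the TPM scale 369, and with only the 6 samples fitted 263. With a minimum of 5 FPKM, which tested fewer genes, 640 were lower. Voom on recovered reads called 487 higher and 1371 lower, and a minimum change of 1 left 526 and 882. Replicate numbers did not pair the samples: deviations from the group means correlated at -0.0791, -0.138 and 0.0204 for numbers 1, 2 and 3, and the fit with the replicate block called 509 higher and 831 lower. Of the 142 named genes called, 91 kept the call in every alternative and 0 changed sign. Among uncalled genes, on the TPM scale B2m turned to -0.30, Rfxank to -0.14 and Sirpa to -0.0125, and B2m was -0.13 with voom. Leaving out 1 library, B2m ran from -0.11 to 0.16, Ctss from -0.0664 to 0.72, Net1 from -0.41 to 0.10 and Sirpa from -0.22 to 0.78, each turning sign without T-DC 1, and H2-K1 ran from -0.27 to 0.0175, turning without T-DC 3. The cause was not tested. The 3 samples a group, of which T-mDC 2 and 3 were nearly alike, limit the precision.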
